A study of Mus musculus with 6 samples.

Results

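Sphingolipid metabolism is represented here by 34 genes for the enzymes, enzyme regulators, exporter and receptors of the pathway. They were chosen by name, from the steps that make ceramide to the receptors for sphingosine 1-phosphate (S1P), and each name was found once among the 53801 genes of the deposited count table. Of the 34, 33 had enough reads to be tested, and Degs2 did not. The cells were stromal vascular fraction (SVF) cells of mouse inguinal white adipose tissue, the mixed non-adipocyte cells of that fat depot, which hold the precursors of fat cells. One group of 3 libraries came from mice labelled Ythdf1 knockout and the other group of 3 from wild-type mice. Both groups had been induced to become adipocytes in culture for 4 days, and the series calls the replicates biological. Ythdf1 encodes a cytoplasmic protein that binds messenger RNA carrying the N6-methyladenosine mark, and the part of the gene removed in the knockout is not given in the sources used here.

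Sphingolipids are built on a long-chain base. Serine palmitoyltransferase joins serine to palmitoyl-CoA in the endoplasmic reticulum, and a reductase, ceramide synthases and a desaturase turn the product into ceramide, the hub of the pathway. Ceramide is then given a head group to become sphingomyelin or glucosylceramide, or is cut by ceramidases to sphingosine, which kinases convert to S1P. S1P acts on G protein-coupled receptors at the cell surface, or is returned to sphingosine by phosphatases or destroyed by S1P lyase. In adipose tissue, ceramides of different acyl chain length are studied for their links to insulin action and mitochondrial function.

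Values are CPM, read counts scaled to the effective size of each library, and are given as mean ± SD with n = 3 per genotype. Library totals ran from 16619605 to 20089138 counts, and 3 counts were worth 0.146 to 0.185 CPM. Each fold is knockout over wild type with its 95% interval, and p-values are from edgeR's quasi-likelihood test, adjusted over all 14816 genes tested by the Benjamini-Hochberg method. The Ythdf1 transcript itself was at 43.8 ± 1.15 CPM in knockout against 61.8 ± 1.34 CPM in wild type, a fold of 0.709 (0.629 to 0.799, edgeR adjusted p = 0.00038), so most of its RNA signal remained. Among marker lists, 13 of 13 adipocyte genes tested were higher in the knockout, with a summed level, led by Fabp4 and Lpl, of 18077 to 24106 CPM in its libraries against 4000 to 6223 CPM in wild type. Progenitor and fibroblast genes, led by Col1a1 and Col3a1, were lower for 10 of 14, and those of smooth muscle and pericytes, led by Acta2 and Pdgfrb, for 7 of 11, with 2 higher. The 12 macrophage genes, led by Lyz2 and Mpeg1, summed to 812 CPM in knockout replicate 3, to 303 and 305 CPM in the other knockout libraries and to between 97.3 and 175 CPM in wild type. In such bulk samples a change in the number of cells of a type and a change in RNA per cell cannot be told apart.

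Of the 33 sphingolipid genes tested, 12 were higher and 7 lower in the knockout at an adjusted p of 0.05 in edgeR's test. Those 19 are 57.6% of the genes, where 44.3% of all genes tested passed, 22.6% higher and 21.7% lower. As a median, the log2 fold change of the 33 was 0.18, and that of all genes tested 0.01. Their libraries did not overlap between genotypes for 21 of the 33 (63.6%), where 55.2% of all genes did not. Of the 33, 9 passed with a fold of 1.5 or more, as did 27.5% of all genes. The 9 are thus near the background share, and what follows describes which steps the changes fell on. The plot of fold changes by step shows called genes in every step except serine palmitoyltransferase and the sphingomyelinases.

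**Figure D1:**
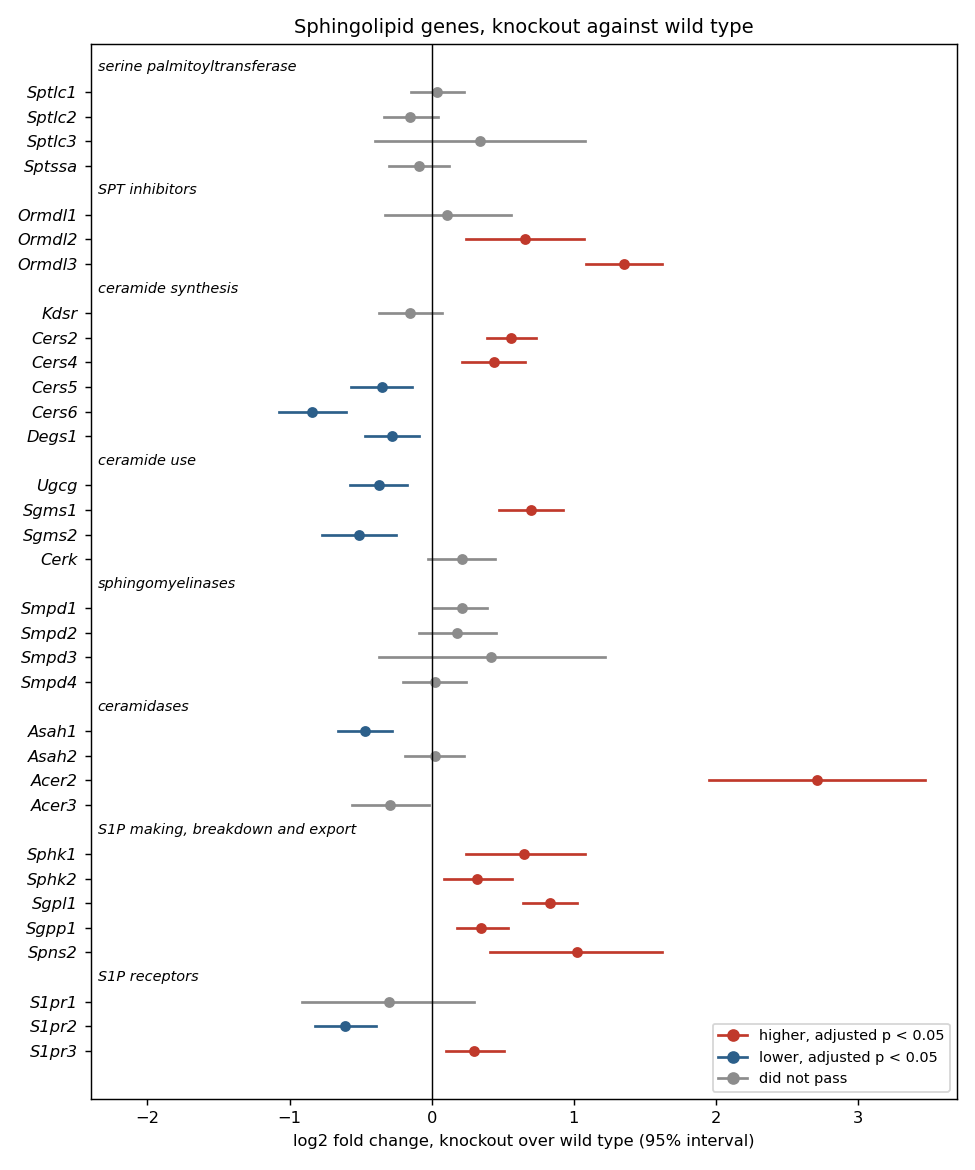
Log2 fold change of each of the 33 tested sphingolipid genes, knockout over wild type, with its 95% interval (horizontal axis), grouped by step of the pathway. Red marks the 12 genes higher and blue the 7 genes lower at an adjusted p of 0.05, and grey those that did not pass; Acer2 lies farthest to the right, at 2.71.

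The promoter stretches of 2 genes that rose, Acer2 and Sgpl1, and of 2 that fell, Cers6 and S1pr2, are shown as examples. They come from ceramide breakdown, S1P breakdown, ceramide synthesis and S1P reception, where other genes described below moved in the other direction or did not pass. The genes shown passed with a fold of at least 1.5 in either direction and have a single start listed in RefSeq. Each stretch runs 5′ to 3′ on the gene's strand from 250 to 31 bases before the RefSeq start (GRCm38.p6), and no exon of the annotation used here overlaps it.
Acer2 (chr4:86874164-86874383, plus strand): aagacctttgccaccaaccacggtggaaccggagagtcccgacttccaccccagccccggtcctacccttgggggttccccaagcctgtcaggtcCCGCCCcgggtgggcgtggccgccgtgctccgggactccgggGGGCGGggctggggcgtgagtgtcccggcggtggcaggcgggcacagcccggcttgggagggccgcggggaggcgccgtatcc
Sgpl1 (chr10:61147715-61147934, minus strand): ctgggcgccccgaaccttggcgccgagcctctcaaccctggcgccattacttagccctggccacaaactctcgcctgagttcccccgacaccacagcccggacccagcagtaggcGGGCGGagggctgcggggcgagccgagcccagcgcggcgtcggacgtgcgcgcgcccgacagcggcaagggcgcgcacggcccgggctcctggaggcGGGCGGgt
Cers6 (chr2:68861191-68861410, plus strand): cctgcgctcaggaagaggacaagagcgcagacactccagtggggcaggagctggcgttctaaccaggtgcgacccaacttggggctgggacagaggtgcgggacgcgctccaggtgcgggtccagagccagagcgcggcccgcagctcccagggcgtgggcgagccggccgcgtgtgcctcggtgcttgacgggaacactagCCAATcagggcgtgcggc
S1pr2 (chr9:20976824-20977043, minus strand): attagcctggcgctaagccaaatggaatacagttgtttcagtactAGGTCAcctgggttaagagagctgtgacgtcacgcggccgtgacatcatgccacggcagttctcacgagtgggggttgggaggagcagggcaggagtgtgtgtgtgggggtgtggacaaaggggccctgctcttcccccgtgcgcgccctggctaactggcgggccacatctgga

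Capitals mark matches, on either strand, to 7 short motifs that were searched: the GC box GGGCGG, the CCAAT box CCAAT, the nuclear receptor half-site AGGTCA, the DR1 repeat of 2 such half-sites with 1 base between, the C/EBP pair TTGCNNAA, the E-box CACGTG and the TATA box TATAAA. A DR1 match also counts as a half-site, and no other of these motifs contains another. The Acer2 and Sgpl1 stretches each held 2 GC boxes, the Cers6 stretch a CCAAT box and the S1pr2 stretch a half-site. GC boxes occurred in at least 1 such stretch of 20 of the 31 sphingolipid genes found in the RefSeq table and in 28.5% of all 32851 stretches. CCAAT boxes occurred for 13 of the 31 and in 31.0% of all, and half-sites for 9 of the 31 and in 12.5% of all. E-boxes occurred for 5 of the 31 and in 5.01% of all, and C/EBP pairs for 3 of the 31 and in 8.78% of all. The DR1 repeat and the TATA box matched in 0 of the 31, against 0.0304% and 9.95% of all stretches. Some genes have several listed starts and so several stretches, so the counts by gene and the shares by stretch are unlike measures. A match describes these letters and is no evidence of binding.

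The genes of serine palmitoyltransferase, the committed first enzyme, did not pass. In edgeR's test 0 of 4 were called, with 0 of 4 at an unadjusted p under 0.05 and 0 of 4 by DESeq2. The catalytic subunit gene Sptlc2 was at 107 ± 7.77 CPM in knockout against 119 ± 5.98 CPM in wild type (fold 0.903, 0.792 to 1.03). Its partner subunit gene Sptlc1 was at 34.3 ± 1.31 against 33.3 ± 0.224 CPM (fold 1.03, 0.903 to 1.17), and the small activating subunit gene Sptssa at 26.3 ± 1.73 against 28.0 ± 0.941 CPM (fold 0.940, 0.813 to 1.09). Across these 3 genes the lowest bound of the fold was 0.792 and the highest 1.17. Sptlc3, the alternative catalytic subunit that accepts shorter acyl-CoA, was less tightly measured, because wild-type replicate 1 was at 11.3 CPM and the other wild-type libraries were at 25.3 and 25.1 CPM. The knockout libraries were at 22.3, 23.5 and 32.0 CPM, and the fold of 1.26 had an interval from 0.757 to 2.11. Without wild-type replicate 1 the log2 fold change of Sptlc3 was 0.04, against 0.34 with it. Per kb of exon, Sptlc2 made up 41.5% ± 0.898 of the 3 large subunits in knockout against 47.2% ± 5.04 in wild type. The genotypes did not overlap in this share for Sptlc2 but did for Sptlc1 and Sptlc3. The gap for Sptlc2 was narrow, from 42.3% in knockout replicate 1 to 43.1% in wild-type replicate 3. Wild-type replicate 1, the library with the low Sptlc3 level, had the highest Sptlc2 share, 52.8%.

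The ORMDL proteins bind serine palmitoyltransferase and hold it back when sphingolipids are plentiful, and of their 3 genes 2 were higher in the knockout. Ormdl3 (ENSMUSG00000038150, chr11:98581256-98587368, minus strand, GRCm38) was at 199, 233 and 166 CPM in the knockout libraries and at 75.2, 85.0 and 74.0 CPM in the wild-type libraries. Every knockout library lay well above every wild-type library, with knockout replicate 3 lowest of its group. The fold was 2.55 (2.12 to 3.07, edgeR adjusted p = 6.6e-06). Ormdl2 (ENSMUSG00000025353, chr10:128817902-128821645, minus strand) was at 7.97, 7.33 and 6.63 CPM in knockout and at 4.07, 5.62 and 4.23 CPM in wild type. The groups did not overlap, and the fold was 1.58 (1.18 to 2.10, edgeR adjusted p = 0.014). That call ended without knockout replicate 1 (adjusted p = 0.062), wild-type replicate 1 (0.057) or wild-type replicate 3 (0.051).

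The Ormdl2 count is uncertain, because 66.7% of its exon bases are shared with exons of Dnajc14 on the opposite strand and the strand setting of the counting is not given in the sources used here. Dnajc14 had a log2 fold change of -0.24, the other direction. Ormdl1 was at 6.77 ± 1.66 CPM in knockout against 6.26 ± 0.484 CPM in wild type (fold 1.08, 0.796 to 1.47) and did not pass. Per kb of exon Ormdl3 was by far the most abundant of the 3, with 93.9% ± 0.630 of their summed level in knockout against 89.7% ± 0.384 in wild type. With the length of the longest protein-coding transcript in place of all exons these shares were 91.7% and 85.2%. A processed copy of Ormdl3, Gm12538, is 97.25% identical over 400 bases and had at most 3 counts in any library.

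**Figure D2:**
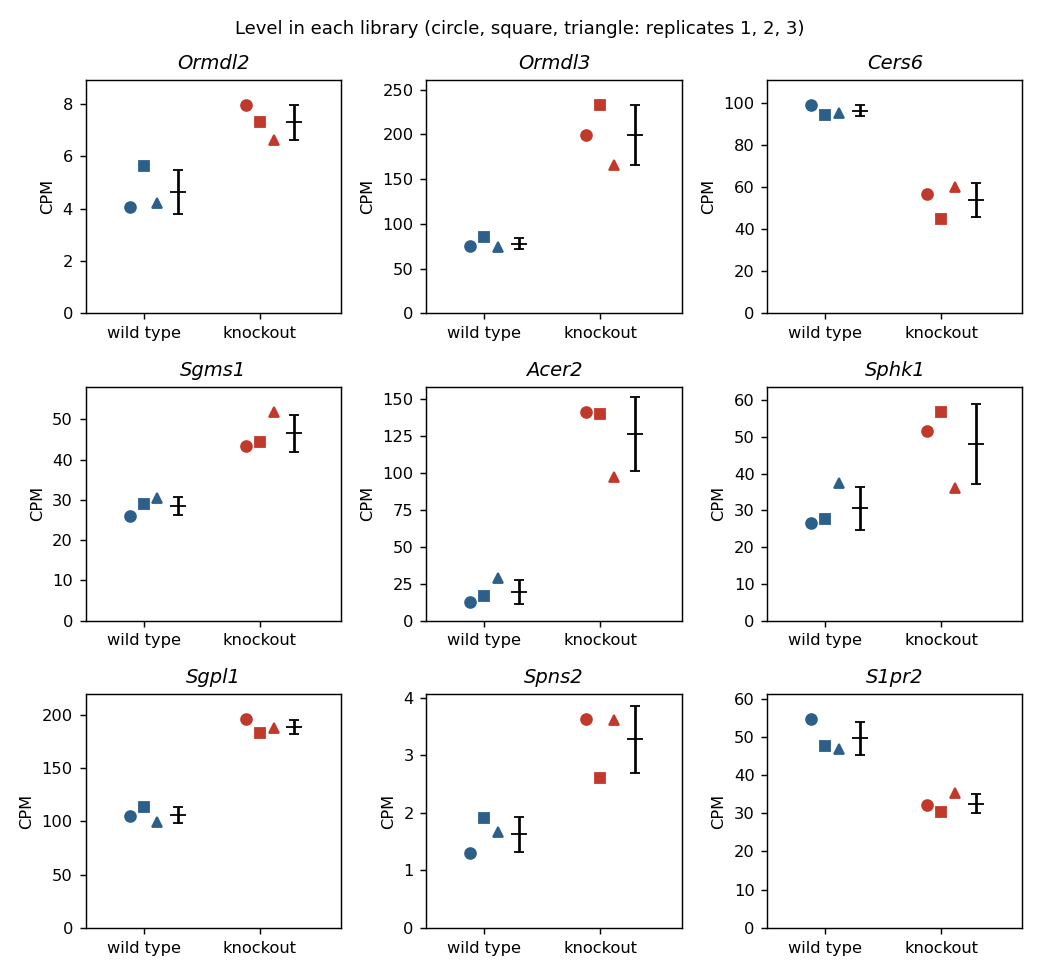
CPM of the 9 sphingolipid genes that passed with at least a 1.5-fold change, in each library (circle, square and triangle for replicates 1, 2 and 3, blue for wild type and red for knockout), with the mean and SD as black bars on a linear axis from 0. The genotypes overlap for Sphk1, where knockout replicate 3 at 36.0 CPM lies below wild-type replicate 3 at 37.4 CPM, and for none of the other 8.

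The ceramide synthases attach the fatty acid to the base, and each isoform prefers certain chain lengths: Cers2 very long chains, Cers4 long to very long chains, and Cers5 and Cers6 chiefly palmitate. Their genes moved in both directions, with Cers2 and Cers4 higher and Cers5 and Cers6 lower in the knockout. Cers6 (ENSMUSG00000027035, chr2:68861441-69114282, plus strand) was at 56.7, 44.7 and 60.2 CPM in knockout and at 99.1, 94.2 and 95.4 CPM in wild type. The wild-type libraries lay close together and all above the knockout libraries, and the fold was 0.560 (0.476 to 0.659, edgeR adjusted p = 8.2e-05). Cers5 was at 63.1, 69.7 and 54.2 CPM in knockout and at 81.5, 79.7 and 77.2 CPM in wild type, a fold of 0.784 (0.676 to 0.909, edgeR adjusted p = 0.012).

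Cers2 was at 141, 144 and 148 CPM in knockout and at 97.2, 98.3 and 97.7 CPM in wild type. The spread within each genotype was small beside that gap, and the fold was 1.48 (1.31 to 1.66, edgeR adjusted p = 0.00013). Cers4 was at 35.3, 34.8 and 38.4 CPM in knockout and at 24.0, 26.7 and 29.5 CPM in wild type, a fold of 1.35 (1.16 to 1.58, edgeR adjusted p = 0.0048). The longest Cers4 transcript shares stretches of at least 200 bases at 90% identity or more with 41 other annotated genes, so part of its count may be less certain.

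Per kb of exon, Cers2 made up 59.6% ± 1.6 of these 4 synthases in knockout against 42.8% ± 0.530 in wild type. Cers6 made up 9.23% ± 1.5 and 17.5% ± 0.363, and Cers5 26.7% ± 3.06 and 36.2% ± 0.697. Cers4 was the least abundant of the 4, at 4.48% ± 0.280 and 3.52% ± 0.389. With the longest coding transcript as the length, the Cers2 share was 65.7% in knockout against 49.4% in wild type, and the order of the 4 was the same. The ratio of Cers2 to Cers6 counts within a library, which no scaling between libraries can alter, was 2.48, 3.23 and 2.45 in knockout against 0.981, 1.04 and 1.02 in wild type. This pair and the other ratios given here were picked after their values had been seen.

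**Figure D3:**
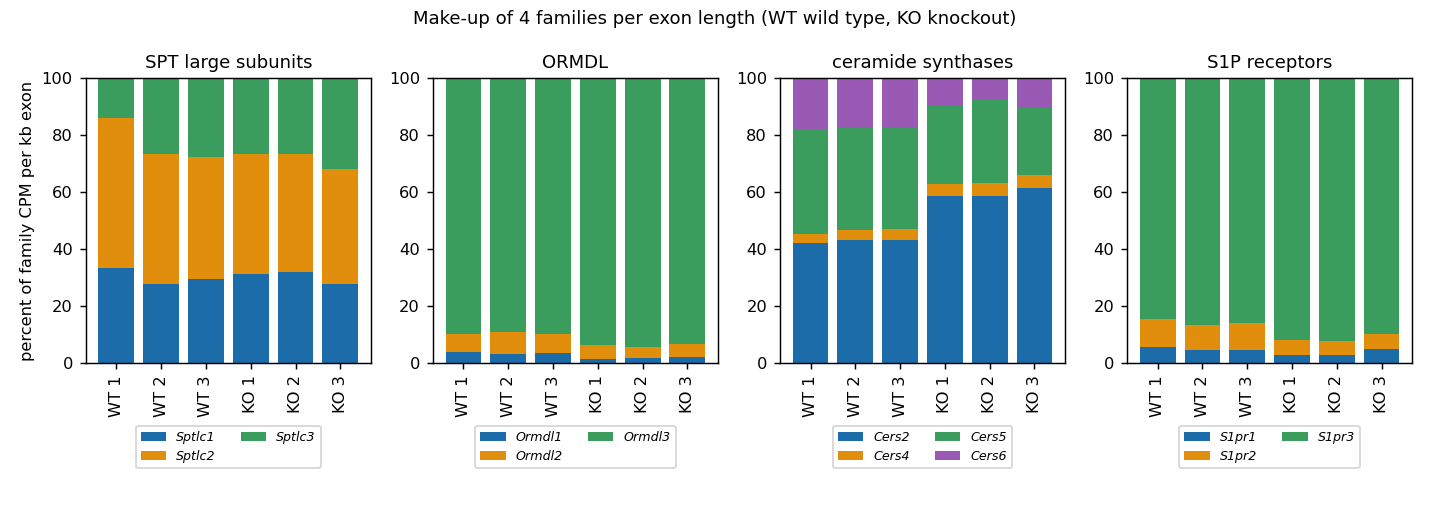
Share of each gene in the summed CPM per kb of exon of its family (vertical axis, percent) in each wild-type (WT) and knockout (KO) library, for the large subunits of serine palmitoyltransferase (SPT), the ORMDL genes, the ceramide synthases and the S1P receptors. In the ceramide synthases the Cers2 share is 58.5% to 61.4% in knockout and 42.2% to 43.2% in wild type, while Ormdl3 and S1pr3 make up most of their families in every library.

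The steps on either side of the ceramide synthases changed less. Kdsr, whose product reduces the first long-chain intermediate, was at 26.0 ± 2.35 CPM in knockout against 28.8 ± 1.32 CPM in wild type and did not pass (fold 0.902, 0.773 to 1.05). Degs1, the desaturase that completes ceramide, was at 127, 134 and 146 CPM in knockout and at 171, 163 and 160 CPM in wild type. The groups did not overlap, and the fold was 0.823 (0.722 to 0.938, edgeR adjusted p = 0.020). The call for Degs1 ended without knockout replicate 1 (adjusted p = 0.11), wild-type replicate 1 (0.063) or wild-type replicate 2 (0.064). Degs2, whose product also makes phytoceramide and is known from gut and skin epithelium, had 4, 0 and 2 counts in knockout against 7, 5 and 9 in wild type and was not tested. Among 16 tested genes of gut epithelium, a list led by Krt19 and Muc2, 13 were lower in the knockout, summing with 2 untested ones to 67.3 to 83.2 CPM there and to 136 to 159.8 CPM in wild type, and their part in the Degs2 counts was not tested. Its last exons also overlap those of Evl on the other strand, over 10.8% of the Degs2 exon bases.

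Ceramide is consumed by the synthases of sphingomyelin and glucosylceramide, and here the 2 sphingomyelin synthase genes moved in opposite directions. Sgms1, the Golgi enzyme (ENSMUSG00000040451, chr19:32122727-32389714, minus strand), was at 43.3, 44.3 and 51.8 CPM in knockout and at 26.1, 29.0 and 30.5 CPM in wild type. All knockout libraries lay above all wild-type libraries, with a fold of 1.63 (1.39 to 1.90, edgeR adjusted p = 0.00022). Sgms2, which also acts at the plasma membrane, was at 16.6, 13.8 and 16.7 CPM in knockout and at 20.6, 23.2 and 23.5 CPM in wild type. Its fold was 0.701 (0.585 to 0.840, edgeR adjusted p = 0.0045). The ratio of Sgms1 to Sgms2 counts was 2.61, 3.22 and 3.10 in the knockout libraries against 1.27, 1.25 and 1.30 in the wild-type libraries.

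Ugcg, which makes glucosylceramide and so opens the glycosphingolipid branch, had the highest CPM of all 34 genes. It was at 371, 373 and 410.1 CPM in knockout and at 512, 505 and 478 CPM in wild type. Every knockout library lay below every wild-type library, and the fold was 0.772 (0.671 to 0.888, edgeR adjusted p = 0.0065). Per kb of exon it ranked first of the 34 in wild type, at 95.6 ± 3.48 CPM per kb, and second in knockout, at 73.8 ± 4.23, behind Ormdl3 at 91.2 ± 15.4. With the longest coding transcript as the length it ranked first in both genotypes. Cerk, the ceramide kinase gene, did not pass, at 25.5 ± 0.428 against 22.1 ± 2.46 CPM (fold 1.15, 0.980 to 1.36).

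Sphingomyelinases return sphingomyelin to ceramide, and 0 of their 4 genes passed in edgeR's test, with 1 of 4 at an unadjusted p under 0.05 and 0 of 4 called by DESeq2. That gene was Smpd1, the acid enzyme of the lysosome, at 107 ± 2.01 CPM in knockout against 92.5 ± 7.11 CPM in wild type. Its fold was 1.15 (1.01 to 1.31, edgeR adjusted p = 0.067), and its libraries did not overlap. Smpd2 was at 22.7 ± 3.29 against 20.0 ± 0.844 CPM and Smpd4 at 26.7 ± 0.726 against 26.4 ± 2.31 CPM. For both, the ranges of the genotypes overlapped. Smpd2 shares 20.3% of its exon bases with Mical1 on the other strand. Smpd3, the neutral enzyme linked to vesicle release, was at 4.51, 5.57 and 2.19 CPM in knockout and at 2.26, 2.47 and 4.34 CPM in wild type. Knockout replicate 3 and wild-type replicate 3 each stood apart from their group, and the interval of the fold, 0.772 to 2.33, was correspondingly wide.

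Ceramidases release sphingosine from ceramide, and the largest change of all 34 genes was in one of them, Acer2, the alkaline ceramidase of the Golgi (ENSMUSG00000038007, chr4:86874396-86934822, plus strand). It was at 141, 139.6 and 97.0 CPM in the knockout libraries and at 12.7, 16.5 and 28.5 CPM in the wild-type libraries. The lowest knockout library, replicate 3, stood well above the highest wild-type library, which was also replicate 3. The fold was 6.54 (3.87 to 11.1, edgeR adjusted p = 0.00062). Over fits lacking 1 library its log2 fold change ran from 2.48 to 3.11, the latter without wild-type replicate 3, and every such fit passed. In the wild-type libraries the adipocyte markers summed to 4000, 5802 and 6223 CPM in replicates 1, 2 and 3, and in the knockout to 19860.2, 24106 and 18077 CPM. These sums were thus lowest in the same wild-type and knockout libraries as Acer2, but highest in knockout replicate 2, where Acer2 was highest in replicate 1. They were mostly Fabp4 and Lpl, and single markers were mixed. In knockout replicates 1, 2 and 3 Fabp4 was at 8534, 11476 and 7524 CPM and Lpl at 5384, 6105 and 4976 CPM. Plin1 was at 792, 818 and 821 CPM and Plin4 at 577, 558 and 636 CPM, both highest in replicate 3. The part of adipocyte number in the Acer2 difference was not tested.

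The other ceramidase genes did not share that rise. Asah1, the acid ceramidase of the lysosome, was at 186, 189.6 and 194 CPM in knockout and at 276, 264 and 247 CPM in wild type. The groups did not overlap, and the fold was 0.723 (0.634 to 0.824, edgeR adjusted p = 0.0010). Acer3 was at 14.2 ± 0.518 CPM in knockout against 17.3 ± 2.08 CPM in wild type (fold 0.818, 0.677 to 0.988, edgeR adjusted p = 0.079), and its longest transcript shares stretches with 165 other annotated genes. Asah2, the neutral ceramidase, was at 53.3 ± 5.22 against 52.5 ± 2.45 CPM (fold 1.02, 0.880 to 1.17). The ratio of Acer2 to Asah1 counts was 0.760, 0.736 and 0.501 in the knockout libraries against 0.0460, 0.0625 and 0.115 in the wild-type libraries. Per kb of exon Asah1 remained the more abundant in knockout, at 56.0 ± 1.11 CPM per kb against 17.6 ± 3.51 for Acer2, and in wild type the pair were at 77.4 ± 4.37 and 2.69 ± 1.15.

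**Figure D4:**
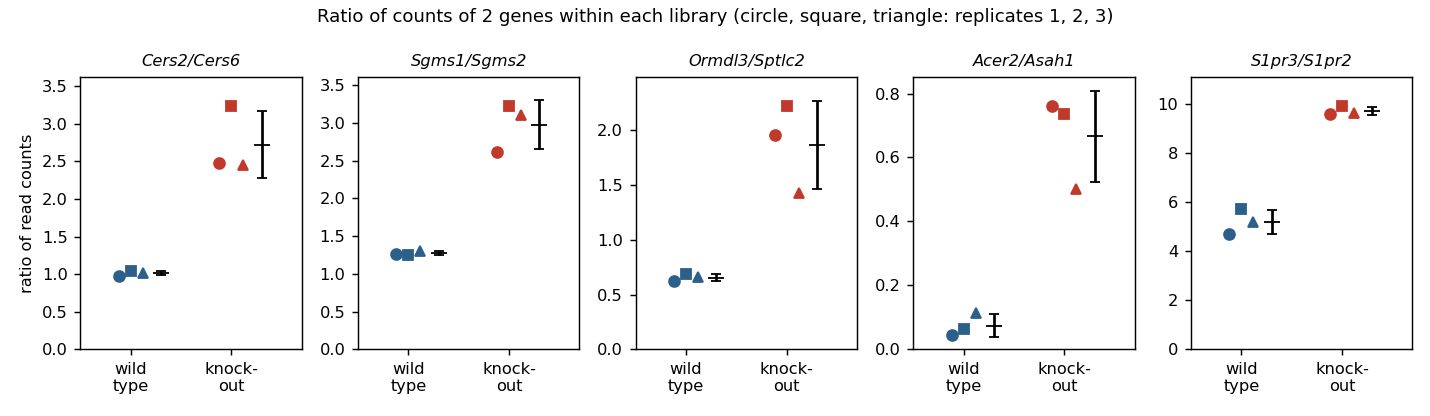
Ratio of the read counts of 2 genes within each library (circle, square and triangle for replicates 1, 2 and 3, blue for wild type and red for knockout), with the mean and SD as black bars, on linear axes from 0. The genotypes do not overlap in any of the 5 ratios; that of Cers2 to Cers6 is 2.45 to 3.23 in knockout and 0.981 to 1.04 in wild type.

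The 5 genes chosen here for making, breaking down and exporting S1P were all higher in the knockout in edgeR's test. DESeq2 called 4 of them and did not call Sphk2. Of all genes tested, 22.6% were higher in edgeR's test. The 5 are not all genes of these steps, and further pathway genes listed for comparison were mixed. Plpp1 was lower (fold 0.557, edgeR adjusted p = 4.6e-05), Plpp3 higher (fold 1.24, edgeR adjusted p = 0.029). Aldh3a2 was lower (fold 0.83, edgeR adjusted p = 0.016). Plpp2 (fold 0.971) and Mfsd2b (fold 0.968) did not pass, and Sgpp2 was not tested. Sgpl1, the lyase that irreversibly cleaves S1P (ENSMUSG00000020097, chr10:61098642-61147703, minus strand), was at 196, 183 and 188 CPM in knockout and at 105, 114 and 99.3 CPM in wild type. The groups lay far apart relative to their spread, and the fold was 1.78 (1.56 to 2.03, edgeR adjusted p = 1.8e-05). Sgpp1, the phosphatase that turns S1P back to sphingosine, was at 129, 124 and 124 CPM in knockout and at 90.9, 102 and 103 CPM in wild type, a fold of 1.28 (1.13 to 1.45, edgeR adjusted p = 0.0047).

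The kinase genes were less secure. Sphk1, the cytosolic kinase (ENSMUSG00000061878, chr11:116530925-116536674, plus strand), was at 51.7, 56.8 and 36.0 CPM in knockout and at 26.7, 27.6 and 37.4 CPM in wild type. Both replicates numbered 3 fell between the other libraries, so the genotypes overlapped. Its fold was 1.57 (1.18 to 2.11, edgeR adjusted p = 0.018). The call ended with the replicate number as a block (adjusted p = 0.094) and without knockout replicate 1 (0.056) or 2 (0.093) or wild-type replicate 1 (0.064) or 2 (0.064).

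Sphk2, the kinase found in the nucleus and mitochondria, was at 29.7, 30.7 and 29.6 CPM in knockout and at 20.8, 26.7 and 24.5 CPM in wild type. The groups did not overlap, and its fold was 1.25 (1.06 to 1.48, edgeR adjusted p = 0.030). The call ended under DESeq2 (adjusted p = 0.062), with upper-quartile scaling (0.056), and without knockout replicate 1 (0.074) or 2 (0.053) or wild-type replicate 1 (0.13) or 3 (0.059). The Sphk2 exons overlap those of Dbp over 13.0% of their bases and those of the abundant ribosomal gene Rpl18 over 8.97%, both on the other strand.

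Spns2, the transporter that exports S1P from cells (ENSMUSG00000040447, chr11:72451638-72489904, minus strand), was low. Reads numbered 66, 46 and 74 in the knockout against 23, 31 and 29 in the wild-type libraries, or 3.63, 2.61 and 3.61 against 1.30, 1.92 and 1.66 CPM. The groups did not overlap, and the fold was 2.02 (1.33 to 3.07, edgeR adjusted p = 0.011). The transporter is best known from endothelial cells. Of 11 endothelial markers tested 2 were higher and 0 lower in edgeR's test, 3 of 11 at an unadjusted p under 0.05 and 1 of 11 by DESeq2. The 12 listed genes, led by Flt1 and Tek, summed to 70.5 to 84.0 CPM in knockout and to 62.7 to 75.6 CPM in wild type. Flt1, the largest part of that sum, had a fold of 1.04 and did not pass. The 2 markers that were higher were Egfl7 (fold 2.13) and Tek (fold 1.29). The part of endothelial cells in the Spns2 difference was not tested.

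Of the S1P receptors, S1pr3 was the main one in these cells and rose slightly, while S1pr2 fell. S1pr3, which couples to several classes of G protein, was at 308, 299 and 341 CPM in knockout and at 257, 271 and 242 CPM in wild type. The groups did not overlap, and the fold was 1.23 (1.07 to 1.42, edgeR adjusted p = 0.021). This call ended without knockout replicate 1 (adjusted p = 0.055) or 3 (0.054) or wild-type replicate 1 (0.050) or 3 (0.074). S1pr2, another of these receptors (ENSMUSG00000043895, chr9:20962361-20976781, minus strand), was at 32.1, 30.2 and 35.3 CPM in knockout and at 54.6, 47.5 and 46.7 CPM in wild type. Every knockout library lay below every wild-type library, and the fold was 0.657 (0.566 to 0.763, edgeR adjusted p = 0.00046). This receptor is also known in smooth muscle cells and pericytes. Their 12 listed markers, led by Acta2 and Pdgfrb, summed to 509 to 633 CPM in knockout and 1168 to 1413 CPM in wild type. Of 11 tested, 7 were lower and 2 higher, the latter Cspg4 (fold 4.59) and Mcam (fold 2.21). The part of these cells in the S1pr2 difference was not tested.

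S1pr1, the receptor of lymphocytes and endothelium, had one library that stood apart. Knockout replicate 3 was at 12.1 CPM and the other knockout libraries at 6.05 and 5.68 CPM, while wild type was at 11.2, 9.70 and 8.74 CPM. With all libraries it did not pass (fold 0.810, 0.532 to 1.23, edgeR adjusted p = 0.40). Without knockout replicate 3 its log2 fold change was -0.75 and passed (edgeR adjusted p = 0.0043). That library also had the highest macrophage sum, 812 CPM. The sum of the 12 endothelial markers differed less, at 84.0 CPM there against 78.2 and 70.5 CPM in the other knockout libraries. That sum was mostly Flt1 and Tek, and single genes were mixed. Cdh5 was at 9.55 CPM there against 5.11 and 2.90 CPM, and Pecam1 at 6.53 against 3.85 and 2.27 CPM. Kdr was at 2.44 against 3.13 and 1.59 CPM, and Egfl7 at 5.75 against 6.65 and 8.35 CPM. The part of either cell type in the S1pr1 level was not tested. Lymphocyte markers, of which Cd79a and Cd4 were the most abundant, were at or near 0, with a sum of at most 0.972 CPM in any library.

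Per kb of exon S1pr3 held 91.4% ± 1.18 of the summed level of these 3 receptors in knockout against 85.9% ± 1.21 in wild type. S1pr2 held 5.27% ± 0.0835 and 9.30% ± 0.770, and S1pr1 held 3.30% ± 1.21 and 4.84% ± 0.486, with overlapping genotypes for S1pr1. The ratio of S1pr3 to S1pr2 counts was 9.60, 9.91 and 9.65 in the knockout libraries against 4.71, 5.71 and 5.18 in the wild-type libraries. The plot of within-library ratios shows this pair beside those of the ceramide and sphingomyelin synthases.

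Among 49 further genes of the pathway listed for comparison, 37 had enough reads to be tested, and 10 were higher and 8 lower. Those 18 are 48.6% of the 37, close to the 44.3% of all genes, with a median log2 fold change of -0.05. The largest passing rises were of Hacd2, a dehydratase of very long chain fatty acid elongation, at 76.6 ± 9.14 against 32.1 ± 4.19 CPM (fold 2.39, edgeR adjusted p = 8.7e-06), of Galc, the lysosomal galactosylceramidase (fold 1.51), and of Tecr, the reductase that ends the elongation cycle (fold 1.45). Tecr also serves sphingolipid breakdown. The largest passing falls were of Smpdl3b, a sphingomyelinase-like protein of the cell surface, at 1.6 ± 0.585 against 3.38 ± 1.05 CPM (fold 0.480, edgeR adjusted p = 0.023), of the ganglioside sialidase gene Neu3 (fold 0.556), and of Plpp1, a lipid phosphatase of the cell surface (fold 0.557).

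Of the receptor and family members outside the 34, S1pr4 and S1pr5 had at most 7 counts in any library, Cers3 at most 5 and the skin ceramidase gene Acer1 at most 3. Sptssb, the second small subunit of serine palmitoyltransferase, had 0 counts in each knockout library and 2, 5 and 4 in wild type. These levels are at or near the floor of 3 counts, which covers counting error only, and were too low to compare.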

How the data were processed

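RNA of 6 SVF cultures was sequenced after removal of ribosomal RNA, as pairs of 150 bp, per the labels' protocols. The authors deposited raw counts per Ensembl gene, made with STAR and featureCounts on mm10 and GRCm38 per the submitters' processing notes; their versions, annotation, strand and multi-read settings: not given in the sources used here. Symbols and positions came from GENCODE mouse release 21 (GRCm38). Libraries of a genotype were distinct (chi-square per degree of freedom 10.0 to 26.3).

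The test was edgeR 4.0.16 (R 4.3.3): filterByExpr (minimum count 10, minimum total 15) kept 14816 of 28268 genes with any count, TMM factors lay between 0.975 and 1.02, and the legacy robust quasi-likelihood F test compared genotypes, 2-sided. CPM are relative to the scaled totals of the genes kept. p-values measure the spread between these replicates and do not cover a difference in isolation or culture that coincided with genotype. The fit was tested on simulated data. Family shares used CPM per kb of the union of annotated exons. Sequence overlaps were found with BLAST+.

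The members, gene lists and tests were chosen with earlier results of these data known. The naming rule gave every library's value for passing members of at least 1.5-fold, the 3 largest passing rises and falls of the other pathway genes, and, from each marker list, the names of the 2 most abundant genes. Other per-library values were given after they had been seen. Tried instead were upper-quartile or RLE scaling, no low-count filter, DESeq2 1.42.0, a replicate block, a term for the suffix (L0 or L1) in library names, leaving out each replicate and, added after the data had been seen, transcript lengths.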

Additional observations from a re-analysis of the deposited data

How the results depend on the processing

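Of the 19 called genes, 14 kept their direction and their side of the threshold under all 12 alternatives of scaling, tool, filter, covariate and left-out library. The other 5, Ormdl2, Degs1, Sphk1, Sphk2 and S1pr3, kept their direction and lost the call under at least 1. Members called numbered 8 to 12 higher and 6 to 8 lower with 1 library left out, the 8 higher without knockout replicate 1 or wild-type replicate 1. Replicate numbers are not stated to pair animals, and same-numbered libraries did not deviate together (correlations of their deviations -0.126, 0.0117 and -0.143). With the replicate block 11 members were higher and 7 lower, and 3136 and 2993 of all genes, against 3342 and 3219 without it. Upper-quartile factors moved the median log2 fold change of all genes from 0.008 to -0.047 and turned 3 genes that did not pass: Sptlc1 to -0.01, Smpd4 to -0.04 and Asah2 to -0.03. Over fits lacking 1 library, the value for Smpd4 on the log2 scale ran from -0.04 to 0.09, that of Asah2 from -0.04 to 0.10 and that of Ormdl1 from -0.05 to 0.29. Acer3, Smpd1, Smpd2 and S1pr1 passed under at least 1 alternative only. Degs2, with at most 9 counts in a library, was too low to be tested.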
